A study of Mus musculus with 8 samples.

Results

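Keratins are the intermediate-filament proteins of epithelial cells, and the 50 keratin genes described here are the members of this family that the expression table holds with a value other than 0. They were taken by symbol, Krt followed by a number and at most 1 letter, which matched 52 of 24918 entries. Krt26 and Krt40 were 0 in every library and were dropped. The test was limited to entries whose log2 values averaged 5 or more across the 8 libraries, which kept 23 of the 50 keratins among 13269 entries.

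RNA was measured by sequencing in 8 libraries of whole cornea, each from a pool of 4 to 6 corneas of male mice aged 3 months on a C57BL/6J/FVB background. All mice were homozygous for a floxed allele of the glucocorticoid receptor gene Nr3c1. The 4 corneaGRKO libraries (GRloxP/loxP-PAX6Cre/+) came from mice that also carried Cre driven by the P0 promoter of Pax6. That promoter is active in the epithelium of the cornea and in other parts of the eye that arise from surface ectoderm, so stroma and endothelium, which whole cornea includes, are not its target. The 4 GRflox libraries (GRloxP/loxP-PAX6+/+) came from littermates without Cre, so carrying Cre and losing the receptor cannot be told apart. Libraries are numbered 1, 3, 4 and 5 in each group. Values are log2 normalized expression as the authors deposited it, and differences are corneaGRKO minus GRflox on that scale.

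A keratin filament is built from heterodimers of a type I and a type II keratin, and each epithelium is known for the pairs it makes. Basal cells of stratified epithelia make Krt5 with Krt14, cells of the corneal epithelium make Krt12 as their type I keratin, and internal stratified epithelia make Krt4 with Krt13. Simple epithelia make the type II keratins Krt8 and Krt7 with the type I keratins Krt18 and Krt19. Krt6a, Krt6b, Krt16 and Krt17 are known from stressed or wounded epithelium and from epithelial appendages. In human keratinocytes, the glucocorticoid receptor is known to repress several keratin genes.

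Nr3c1 was lower in the corneaGRKO libraries (10.61, 10.78, 10.83 and 10.78) than in the GRflox libraries (11.07, 11.21, 11.28 and 11.34), with no overlap and a limma adjusted p of 0.00767. The labelled tissue matched its defining keratin, since Krt12 was the highest entry of the whole table in all 8 libraries and Krt5 the second in all 8. CorneaGRKO replicate 4 stood apart in several marker lists. The summed level of 9 photoreceptor genes was 10.29 in it on the log2 scale, against 8.29 to 8.89 in the other corneaGRKO libraries and 8.13 to 8.22 in GRflox. The photoreceptor list had 0 of 4 tested genes past the threshold, 3 of the 4 above GRflox in every corneaGRKO library, and 0 of its genes at 0. Pigment cell genes (8 listed, 0 at 0) had 1 of 4 tested genes called higher (1.33% of all entries), all 4 above GRflox in every corneaGRKO library (5.89% of all entries) and at an unadjusted p under 0.05. The list summed to 10.82 to 11.17 in corneaGRKO and 10.61 to 10.73 in GRflox, highest again in replicate 4. Keratin differences that shrank by more than 1.5 times when that library was left out are given with and without it.

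In GRflox corneas the family was dominated by the corneal and basal keratins. Levels were compared between genes per kilobase of the longest coding transcript, which was found for 22 of the 23 tested keratins. On this per-kilobase scale Krt12 made up 57.3% of the summed keratin level and Krt5 28.1% (means of 4 GRflox libraries). Krt6a (4.39%), Krt6b (4.14%), Krt15 (2.26%) and Krt13 (1.67%) followed, and Krt14, the textbook partner of Krt5, made up 0.789%. The simple-epithelium keratins Krt19 (0.218%), Krt7 (0.0548%), Krt8 (0.0102%) and Krt18 (0.00861%) were minor. In the order of GRflox levels, the neighbours Krt6a and Krt6b, Krt15 and Krt13, Krt7 and Krt17, Krt17 and Krt23, Krt16 and Krt10, Krt1 and Krt8, Krt8 and Krt75, and Krt75 and Krt18 overlapped between libraries. The other neighbours in the order did not overlap.

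**Figure D1:**
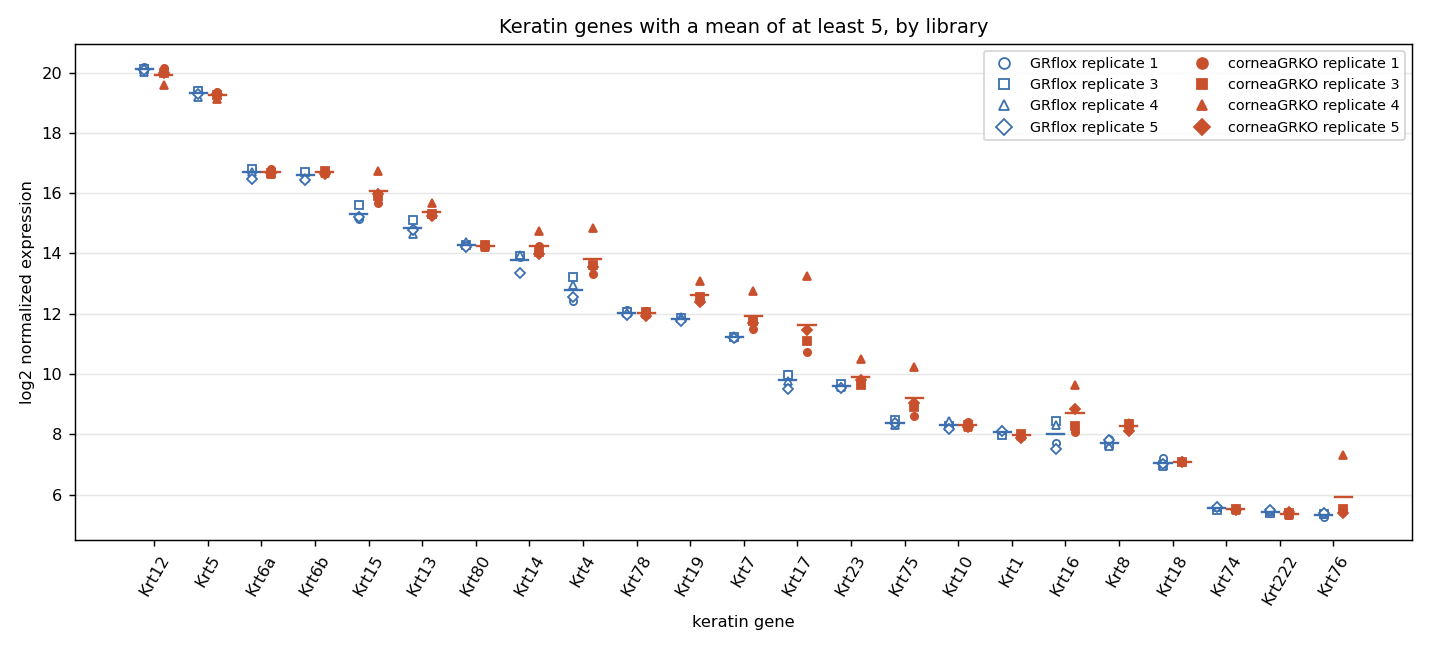
Log2 normalized expression (vertical axis) of the 23 tested keratin genes (horizontal axis, ordered by GRflox mean), with 1 point per library and a short line at each group mean; GRflox points are open and blue, corneaGRKO points filled and orange, and the shape gives the replicate number. Krt12 and Krt5 lie at the top in both groups, and the triangle of corneaGRKO replicate 4 lies above the other corneaGRKO points for genes such as Krt17, Krt4, Krt7 and Krt75.

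Krt12, the keratin that marks differentiated corneal epithelium, had values of 20.20, 20.12, 20.00 and 20.09 in GRflox and 20.15, 19.98, 19.57 and 20.00 in corneaGRKO. The groups overlapped, and corneaGRKO replicate 4 was the lowest library. The difference was -0.18 with a 95% interval of -0.49 to 0.14 (limma adjusted p = 0.545). Without corneaGRKO replicate 4 it was -0.06 (adjusted p = 0.864). As a share of the summed keratin level per kilobase, Krt12 stood at 57.6%, 56.0%, 57.1% and 58.5% in GRflox and at 56.3%, 54.3%, 45.8% and 54.5% in corneaGRKO. Krt5, the basal type II keratin, had values of 19.42, 19.39, 19.20 and 19.28 in GRflox and 19.36, 19.27, 19.12 and 19.27 in corneaGRKO. Its difference was -0.07, with a 95% interval of -0.29 to 0.16 (limma adjusted p = 0.756), and -0.02 without corneaGRKO replicate 4. Its share was 28.1% in GRflox and 27.8% in corneaGRKO. Krt12 and Krt5 together made up 84.3% to 86.6% in GRflox and 83.6%, 82.1%, 74.0% and 82.4% in corneaGRKO. The groups did not overlap in this combined share, which was not tested. The summed level of the family per kilobase was 20.02 ± 0.0851 (SD, n = 4) on the log2 scale in GRflox and 19.97 ± 0.116 in corneaGRKO.

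Across the family, 3 of the 23 tested keratins rose past a limma adjusted p of 0.05 (Krt8, Krt19 and Krt13, adjusted by Benjamini-Hochberg over all entries tested) and 0 fell. Over all entries tested, 1.33% were called higher and 0.52% lower. At an unadjusted p under 0.05, 10 keratins were higher and 0 lower, against 9.69% and 6.86% of all entries. The corneaGRKO libraries lay above all GRflox libraries for 9 keratins (Krt4, Krt7, Krt8, Krt13, Krt14, Krt15, Krt17, Krt19 and Krt75) and below them for 0, against 5.89% above and 4.61% below over all entries. The difference was above 0 for 16 of the 23, against 45.3% of all entries. The median difference of the tested keratins was 0.31, beside -0.01 for all entries tested. In whole cornea, more cells of a type and more RNA per cell cannot be told apart.

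**Figure D2:**
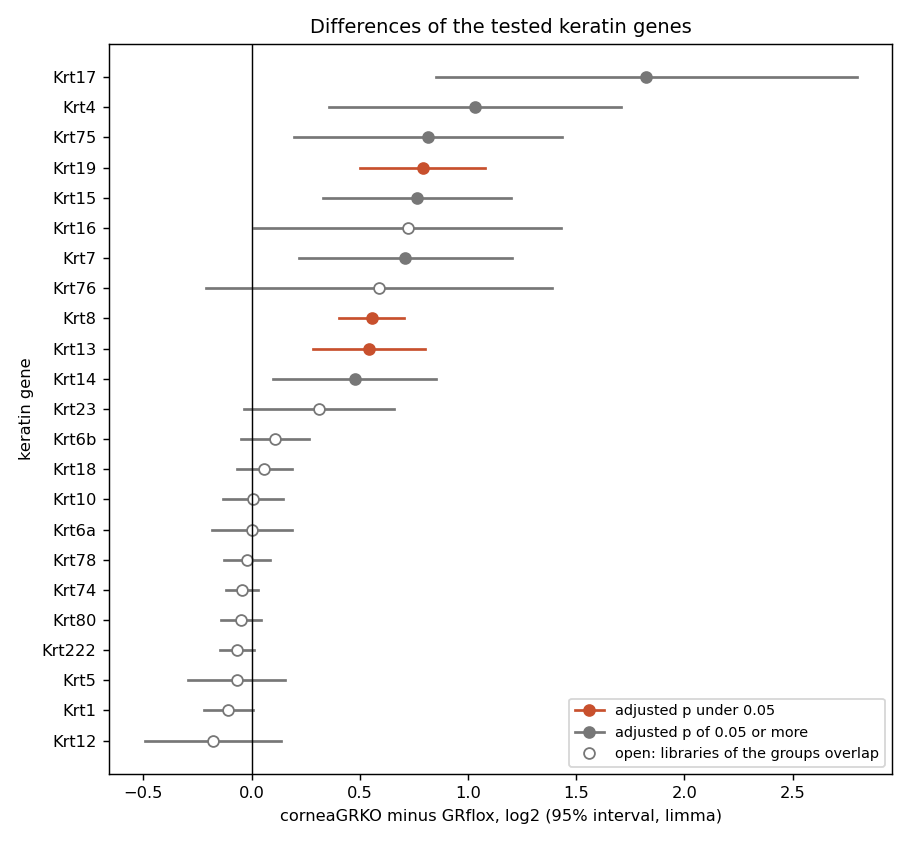
Difference of corneaGRKO and GRflox means on the log2 scale (horizontal axis) for each tested keratin (vertical axis), with the 95% interval from limma; orange marks an adjusted p under 0.05, and open circles mark genes whose libraries overlap between groups. Krt8, Krt19 and Krt13 passed, while Krt17 at 1.82 had the largest difference among the 23 and the widest interval.

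Krt8, the type II keratin of simple epithelia, had GRflox values of 7.83, 7.66, 7.61 and 7.81 and corneaGRKO values of 8.31, 8.34, 8.36 and 8.12. Every corneaGRKO library lay above every GRflox library, and corneaGRKO replicate 4 was close to replicates 1 and 3. Krt8 rose by 0.56 (SE 0.0675, limma adjusted p = 0.00398), which is 1.47-fold on the linear scale. Krt18, the classical type I partner of Krt8, had values of 7.22, 6.97, 6.95 and 7.005 in GRflox and 7.10, 7.08, 7.13 and 7.08 in corneaGRKO. The groups overlapped, and the difference of 0.06 had a 95% interval of -0.07 to 0.19 (limma adjusted p = 0.621). The log2 ratio of Krt8 to Krt18 within each library was 0.61, 0.69, 0.66 and 0.80 in GRflox and 1.22, 1.26, 1.23 and 1.04 in corneaGRKO. The ratio was higher in all 4 corneaGRKO libraries, by 0.50, with an exact permutation p of 0.0286 (two-sided), the smallest that 4 against 4 can give, and of 0.0952 after adjustment over 10 pairs.

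Krt19, the smallest type I keratin, found in simple, conjunctival and limbal epithelium, had values of 11.86, 11.85, 11.88 and 11.75 in GRflox. Its corneaGRKO values were 12.44, 12.55, 13.10 and 12.40. The GRflox libraries were tightly grouped and all corneaGRKO libraries lay above them, replicate 4 the highest. Krt19 rose by 0.79 (SE 0.129, limma adjusted p = 0.0159), or by 0.63 without corneaGRKO replicate 4 (adjusted p = 0.000752). Krt7, a type II keratin of glandular and conjunctival epithelium, stood at 11.20, 11.22, 11.28 and 11.18 in GRflox and at 11.49, 11.77, 12.77 and 11.69 in corneaGRKO. The groups did not overlap, but the spread of corneaGRKO (SD 0.573) was far wider than that of GRflox (SD 0.043). Krt7 differed by 0.71 and did not pass (limma adjusted p = 0.144). Without corneaGRKO replicate 4 it differed by 0.43 and passed (adjusted p = 0.00824, in a range of 0.00341 to 0.296 over 18 alternatives). Krt23, a type I keratin of glandular epithelium, was 9.55 to 9.66 in GRflox and 9.68, 9.65, 10.496 and 9.80 in corneaGRKO, with the groups overlapping. The difference was 0.31 (limma adjusted p = 0.349), and 0.12 without corneaGRKO replicate 4. Krt20, the keratin of gut and urothelial surface cells, had a mean under 5 in both groups and was not tested.

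Conjunctival and goblet cell markers outside the family were read beside these keratins. Of the 7 genes listed, 3 reached the tested level, 0 passed in either direction, and 0 had an unadjusted p under 0.05. The summed level of the list was 13.91 to 14.20 in GRflox and 13.58 to 14.22 in corneaGRKO on the log2 scale, and corneaGRKO replicate 4 was the lowest library. That sum was nearly all Lypd2, listed here as a conjunctival marker, at 13.87 to 14.16 in GRflox and 13.52 in corneaGRKO replicate 4. Which tissue the Lypd2 level came from was not tested. Its highest and lowest libraries, corneaGRKO replicate 1 (14.19) and replicate 4 (13.52), were also those of Slurp1 (14.38 and 13.58), a listed corneal epithelium marker. The other way, Creb3l1 (8.67), Agr2 (5.37), Spdef (4.33) and Muc5ac (1.99) were each at their highest of the 8 libraries in that replicate. Tff1 and Foxa3 were not, and Spdef, Muc5ac, Tff1 and Foxa3 were under the tested level. Over all entries tested, that replicate was the highest library for 20.6%. Muc5ac, the goblet cell mucin, was at 1.92 to 1.97 in GRflox and 1.94 to 1.99 in corneaGRKO. No gene of the list was at 0 in every library. The part of neighbouring tissue in the keratin differences was not tested.

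Krt13, the type I keratin of internal stratified epithelia, had values of 14.81, 15.12, 14.64 and 14.77 in GRflox and 15.27, 15.32, 15.68 and 15.24 in corneaGRKO. The groups did not overlap, though GRflox replicate 3 came close to the lowest corneaGRKO library. Krt13 rose by 0.54 (SE 0.116, limma adjusted p = 0.0483). Krt4, its type II partner, had values of 12.44, 13.23, 12.96 and 12.57 in GRflox and 13.31, 13.61, 14.86 and 13.55 in corneaGRKO. All corneaGRKO libraries lay above GRflox, but GRflox itself was spread (SD 0.363). Krt4 differed by 1.03, with a 95% interval of 0.36 to 1.71 (limma adjusted p = 0.122), and by 0.69 without corneaGRKO replicate 4 (adjusted p = 0.074). The log2 ratio of Krt4 to Krt13 overlapped between groups (-2.38 to -1.67 in GRflox and -1.96 to -0.82 in corneaGRKO, exact permutation p = 0.2, 0.222 adjusted over 10 pairs). The ratio differed by 0.49, and by 0.25 without corneaGRKO replicate 4. Krt76, a keratin of the palate and tongue, was at 5.25 to 5.38 in GRflox. It was at 5.48, 5.52 and 5.37 in corneaGRKO replicates 1, 3 and 5, and at 7.33 in replicate 4 alone. The difference was 0.59 (limma adjusted p = 0.44), and 0.12 without that library (adjusted p = 0.26). Krt78, of the oesophagus and tongue, overlapped between groups with a difference of -0.02 (95% interval -0.13 to 0.09), or -0.01 without corneaGRKO replicate 4.

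The upstream sequences of Krt8, Krt18 and Krt13 are shown because Krt8 and Krt13 rose while Krt18, which neighbours Krt8 on chromosome 15, did not pass. Each is the 250 bases before the annotated start in RefSeq, build GRCm38.p6, read 5′ to 3′ on the strand of the gene. Capitals mark matches to the motifs named below. The Krt13 window is chr11:100121567-100121816 on the minus strand, that of Krt8 is chr15:102004343-102004592 on the minus strand, and that of Krt18 is chr15:102027966-102028215 on the plus strand.
Krt13: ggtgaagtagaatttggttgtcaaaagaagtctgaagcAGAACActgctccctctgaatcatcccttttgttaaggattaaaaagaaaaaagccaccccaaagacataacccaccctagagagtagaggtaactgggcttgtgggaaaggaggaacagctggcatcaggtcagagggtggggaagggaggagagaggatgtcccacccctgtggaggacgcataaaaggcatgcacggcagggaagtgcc
Krt8: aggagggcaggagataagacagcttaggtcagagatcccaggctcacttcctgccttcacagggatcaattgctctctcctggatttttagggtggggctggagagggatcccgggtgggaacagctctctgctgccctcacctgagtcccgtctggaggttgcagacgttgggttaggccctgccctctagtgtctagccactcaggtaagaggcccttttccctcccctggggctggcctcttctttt
Krt18: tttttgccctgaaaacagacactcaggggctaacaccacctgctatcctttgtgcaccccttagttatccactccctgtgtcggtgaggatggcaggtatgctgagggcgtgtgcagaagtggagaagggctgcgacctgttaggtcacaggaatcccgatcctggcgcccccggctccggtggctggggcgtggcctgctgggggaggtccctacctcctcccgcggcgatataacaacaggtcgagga

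RefSeq windows were found for 33 keratins (34 start sites). None was available for Krt19, which also rose, or for Krt15, Krt17 and Krt4, so the shares below leave these genes out. The hexamer AGAACA, which is 1 arm of the binding element of the glucocorticoid receptor, was searched on both strands. It occurred in 17.6% of keratin windows and in 16.1% of 32851 windows of the same length over all genes, and in Krt13 it began 212 bases before the start. The full palindrome, that hexamer followed after a spacer of 3 bases by its reverse complement, occurred in 0 keratin windows and in 0.00913% of all windows. The AP-1 site TGACTCA occurred in 2.94% of keratin windows, an internal start site of Krt13, and in 4.46% of all. The interferon-response core, GAAA followed after 2 bases by GAAA, occurred in 0 keratin windows and in 2.98% of all. A TATAAA box on the sense strand, in contrast, occurred in 38.2% of keratin windows and 7.59% of all. These matches describe letters in a window and not binding.

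Krt15 and Krt14, type I keratins of basal cells, were higher in all corneaGRKO libraries without passing the test. Krt15, which is enriched in limbal basal cells, had values of 15.16, 15.61, 15.26 and 15.20 in GRflox and 15.68, 15.90, 16.72 and 15.97 in corneaGRKO. The groups did not overlap, and the gap between GRflox replicate 3 and corneaGRKO replicate 1 was small. Its difference was 0.77 (95% interval 0.33 to 1.20, limma adjusted p = 0.0829). With corneaGRKO replicate 1 left out the adjusted p was 0.0331, and with replicate 4 left out it was 0.0385, in a range of 0.0263 to 0.226 over 18 alternatives. Krt14 had values of 13.89, 13.93, 13.94 and 13.36 in GRflox and 14.25, 14.06, 14.73 and 13.98 in corneaGRKO. Here GRflox replicate 5 was far below its group and corneaGRKO replicate 5 only just above it. The difference was 0.48 (95% interval 0.10 to 0.85, limma adjusted p = 0.191), and 0.32 without corneaGRKO replicate 4 (adjusted p = 0.352).

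Ratios of Krt5 to its type I partners were compared within each library, and none passed after adjustment over 10 pairs. A single pair at the smallest possible exact permutation p, 0.0286, cannot pass that adjustment by itself. The log2 ratio of Krt5 to Krt15 was 4.26, 3.79, 3.94 and 4.08 in GRflox and 3.68, 3.36, 2.40 and 3.30 in corneaGRKO, with no overlap (exact permutation p = 0.0286, 0.0952 adjusted over 10 pairs). The ratio of Krt5 to Krt14 was 5.26 to 5.92 in GRflox and 4.39 to 5.29 in corneaGRKO, which overlap slightly (exact permutation p = 0.0571, adjusted 0.143). That difference was -0.54, and -0.34 without corneaGRKO replicate 4. The ratio of Krt5 to Krt12 was -0.81 to -0.73 in GRflox. In corneaGRKO it was -0.80, -0.72 and -0.72 in replicates 1, 3 and 5 and -0.45 in replicate 4 (exact permutation p = 0.143, adjusted 0.204). The difference of 0.11 was 0.04 without that library.

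**Figure D3:**
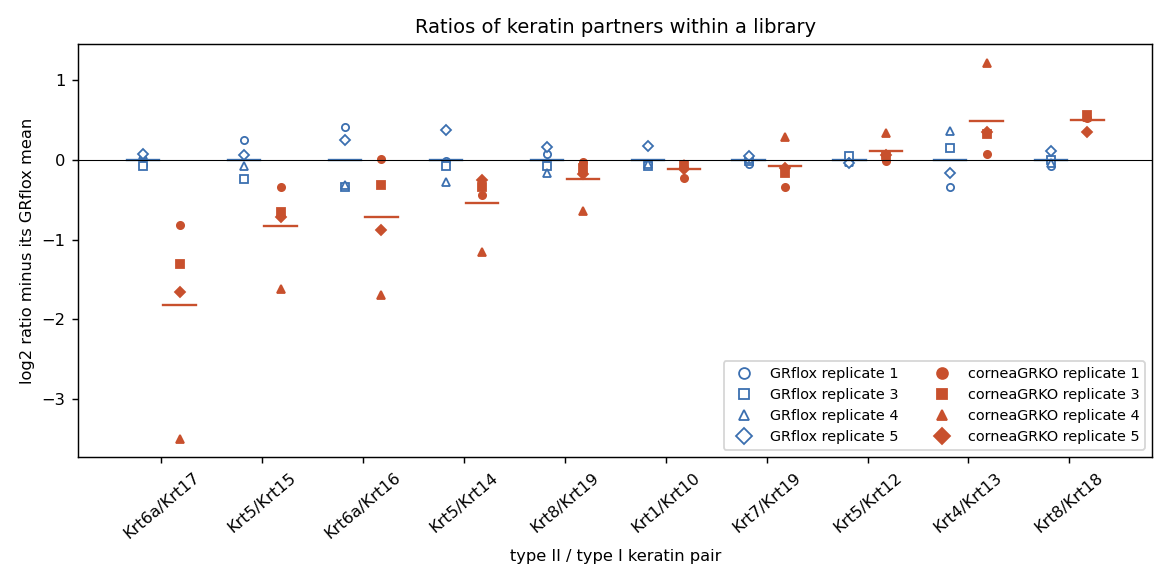
Log2 ratio of a type II to a type I keratin within each library, minus its GRflox mean (vertical axis), for 10 pairs (horizontal axis), with a short line at each group mean. The groups do not overlap for Krt6a/Krt17, Krt5/Krt15 and Krt8/Krt18, and the Krt8/Krt18 ratio moved by 0.50 with the libraries of each group close together.

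The stress keratins were uneven. Krt17 was at 9.99, 9.98, 9.76 and 9.50 in GRflox and at 10.74, 11.08, 13.25 and 11.46 in corneaGRKO. All 4 corneaGRKO libraries lay above GRflox, and replicate 4 exceeded its own group by far. The difference of 1.82 (95% interval 0.85 to 2.80) did not pass (limma adjusted p = 0.0701). It was 1.29 without corneaGRKO replicate 4 (adjusted p = 0.00356) and 2.12 without replicate 1 (0.0268), in a range of 0.00341 to 0.199 over 18 alternatives. Krt6a and Krt6b, type II keratins that can pair with Krt16 and Krt17, stood near 16.7 and 16.6 in GRflox. Krt6a differed by 0.00253 (95% interval -0.18 to 0.19) and Krt6b by 0.11 (95% interval -0.05 to 0.27), with overlapping groups. The log2 ratio of Krt6a to Krt17 was 6.82 to 6.97 in GRflox and 3.39 to 6.07 in corneaGRKO, without overlap (exact permutation p = 0.0286, adjusted 0.0952).

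Krt16, the usual type I partner of Krt6a, was at 7.70, 8.43, 8.32 and 7.52 in GRflox and at 8.09, 8.28, 9.64 and 8.86 in corneaGRKO. The groups overlapped, and the difference of 0.72 did not pass (limma adjusted p = 0.293). It was 0.41 without corneaGRKO replicate 4 (adjusted p = 0.568). The log2 ratio of Krt6a to Krt16 overlapped between groups and differed by -0.72, or by -0.39 without that library. Krt75, a type II keratin of the companion layer of the hair follicle, was at 8.33, 8.49, 8.32 and 8.36 in GRflox and at 8.60, 8.90, 10.23 and 9.04 in corneaGRKO. Every corneaGRKO library lay above GRflox, with replicate 4 highest. Its difference was 0.82 (limma adjusted p = 0.173), and 0.47 without corneaGRKO replicate 4, where it passed (adjusted p = 0.0357, in a range of 0.00372 to 0.331 over 18 alternatives). Krt6a and Krt6b are close copies, and Krt14, Krt16 and Krt17 resemble each other, so how reads were divided among them is uncertain.

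Of the epidermal keratins 3 of 7 were tested, of the hair sheath and shaft keratins 1 of 23, and 0 of these 4 passed, with 0 at an unadjusted p under 0.05. Krt1 and Krt10, the pair of suprabasal epidermis, had differences of -0.11 (95% interval -0.22 to 0.01) and 0.01 (95% interval -0.13 to 0.14). Krt80, found in differentiating epithelia, was abundant at 14.22 to 14.37 in GRflox and 14.22 to 14.27 in corneaGRKO and overlapped between groups. Among the 23 hair sheath and hair shaft keratins, 2 were the dropped genes and 1, Krt74, was tested, with a difference of -0.04. RefSeq classes Krt74 as a transcribed pseudogene. Krt222, a keratin-like gene, differed by -0.07 (limma adjusted p = 0.357). The 27 members under the tested level had means from -3.18 to 4.91 and differences from -0.04 to 0.04, and their groups overlapped in every case. Values this low varied little between libraries in this table, so small differences in these genes cannot be read. Markers outside the family gave 0 of 2 tested epidermis genes and 0 of 4 tested hair follicle genes past the threshold, with 0 at an unadjusted p under 0.05. Foxn1, a transcription factor of hair follicles, was above GRflox in all corneaGRKO libraries, at 5.51 to 5.66 against 5.67, 5.72, 6.55 and 5.71 (limma adjusted p = 0.364). The untested Padi3 was also above, by 0.03, but at a mean of 2.65 so small a difference cannot be read. The summed hair follicle level was 9.04 to 9.09 in GRflox and 9.09 to 9.13 in corneaGRKO, and the epidermal sum was 9.33 to 9.46 and 9.31 to 9.47. Flg2, 1 of the epidermal markers, was at 0 in every library.

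Along the chromosomes, the members that were higher lay partly side by side. The type I cluster on chromosome 11 runs, in RefSeq order among the members, through Krt13, Krt15, Krt19, Krt9, Krt14, Krt16 and Krt17. Of the 6 tested genes in this run, 5 lay above GRflox without overlap, beside 5.89% of all entries tested, and Krt16 was the exception. This stretch was picked out after its values were seen. The other 4 tested genes of chromosome 11 (Krt222, Krt10, Krt12 and Krt23) overlapped between groups. Over the cluster, 2 of 10 tested genes rose past the threshold, beside 1.33% of all entries called higher, with a median difference of 0.51. On chromosome 15, 1 of 13 tested genes rose, with a median difference of 0.06, and the 4 genes without overlap (Krt7, Krt75, Krt4 and Krt8) were scattered among genes near 0.

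**Figure D4:**
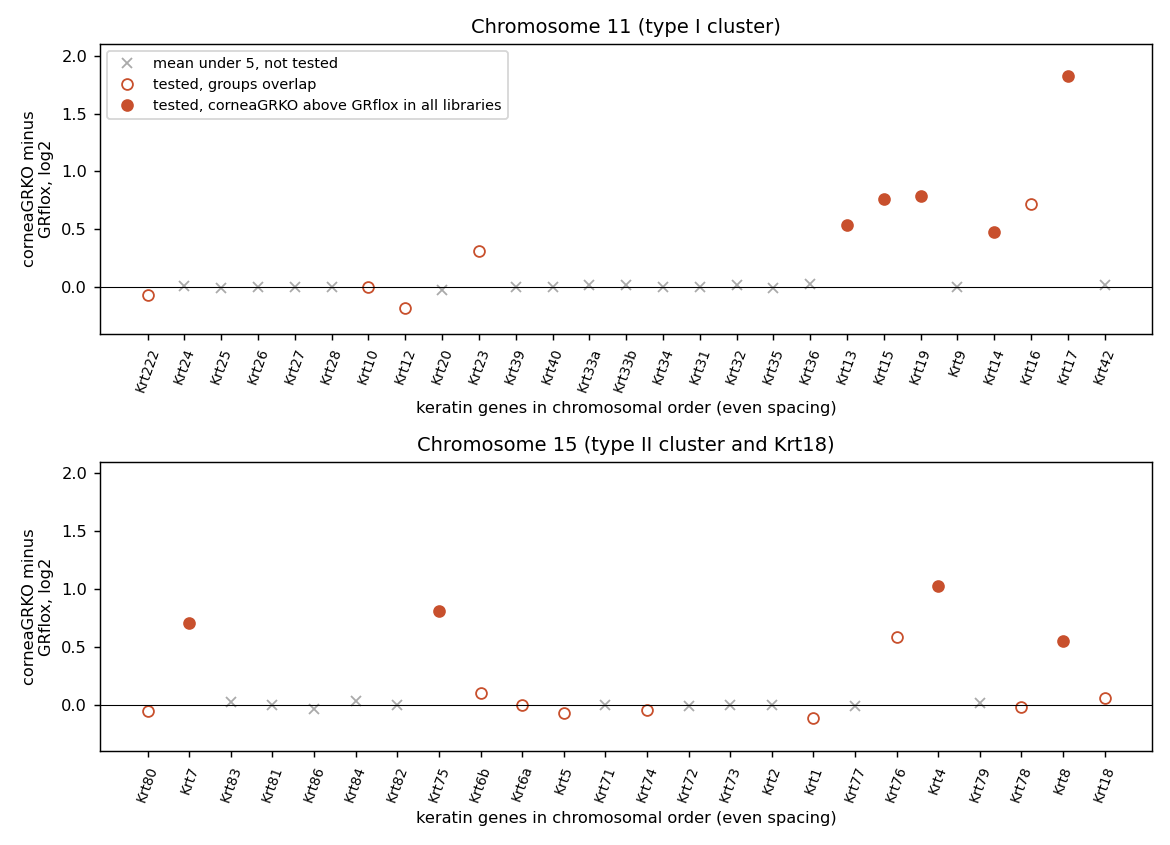
Difference of corneaGRKO and GRflox means on the log2 scale (vertical axis) for keratin genes in chromosomal order at even spacing (horizontal axis), for chromosome 11 above and chromosome 15 below; filled circles are tested genes whose corneaGRKO libraries all exceed GRflox, open circles tested genes that overlap, and crosses genes under the tested level. The filled circles on chromosome 11 lie in the run from Krt13 to Krt17.

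With replicate 4 included, the keratins differed more between corneaGRKO libraries than between GRflox libraries. The median SD over the 23 tested keratins was 0.204 in corneaGRKO and 0.101 in GRflox, and it was 0.0788 in corneaGRKO without replicate 4. Over all entries tested, the median SD was 0.0609 in corneaGRKO, 0.0656 in GRflox and 0.0529 in corneaGRKO without replicate 4. Replicate 4 was the highest of the 8 libraries for 12 of the 23 keratins, against 20.6% of all entries tested. It stood more than 0.5 above the GRflox mean for 12 keratins, against 4, 7 and 6 in replicates 1, 3 and 5. The same library held the highest photoreceptor and pigment sums and the lowest Krt12 value. Its summed corneal epithelium markers outside the family (10 genes, 0 at 0) were also lowest, at 19.41 against 19.69 to 19.91 in the other corneaGRKO libraries and 19.68 to 19.98 in GRflox. Most of that sum was Aldh3a1 (18.61 in replicate 4) and Tkt (17.22). Slurp1, Upk1b, Gjb6, Dsg1a and Perp were also at their lowest of the 8 libraries in replicate 4. Aldh1a1 and Cdh1 were not, and Clu was at its highest (13.84). The share of all entries at their lowest in that library was not counted. Of the 10 tested genes, 0 passed, while 1 was higher and 2 were lower at an unadjusted p under 0.05 (9.69% and 6.86% over all entries). Dsg1a lay below GRflox in all corneaGRKO libraries and Clu above it in all (4.61% and 5.89% over all entries). The fit without corneaGRKO replicate 4 called 6 keratins higher (Krt7, Krt8, Krt15, Krt17, Krt19 and Krt75), beside 1.53% of all entries called higher. Krt13 was the call lost in that fit (limma adjusted p = 0.0521).

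**Figure D5:**
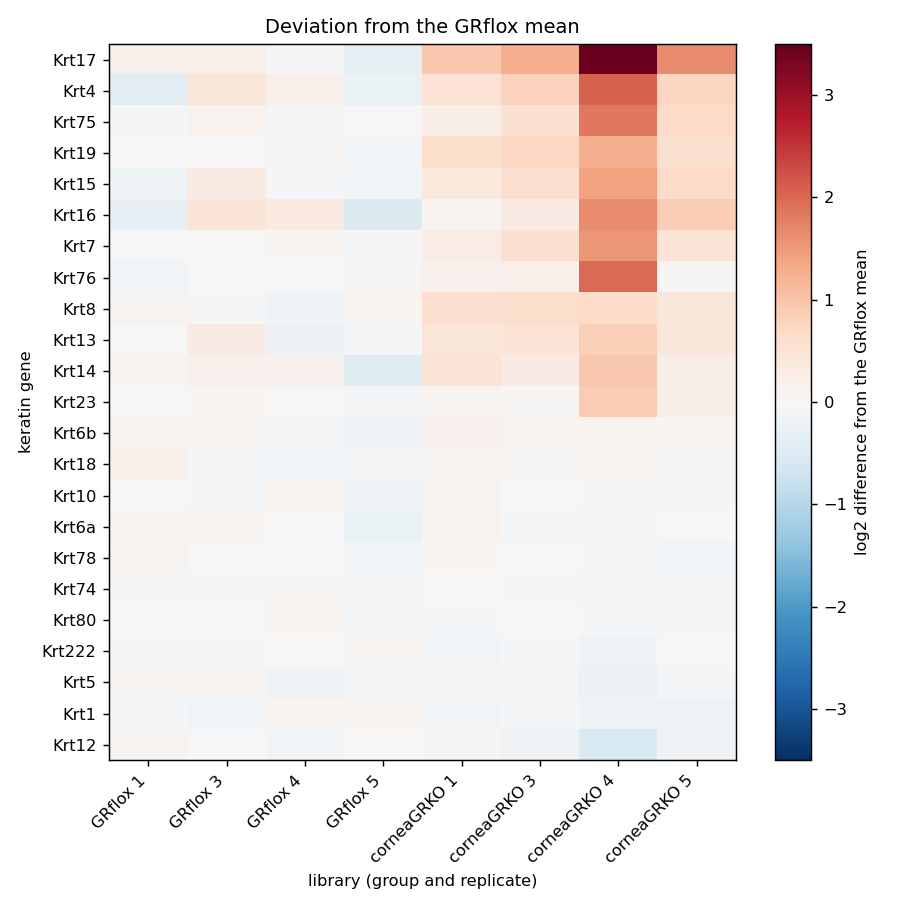
Deviation of each library from the GRflox mean on the log2 scale (colour, red above and blue below) for the 23 tested keratins (vertical axis, ordered by difference) in the 8 libraries (horizontal axis). The upper genes are red in all corneaGRKO libraries and deepest in replicate 4, where Krt12 at 19.57 is also lowest.

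The calls of Krt19 and Krt13 were lost in some of the fits without 1 library. Krt8 passed in all 18 alternatives (limma adjusted p 0.00139 to 0.0259). Krt19 passed in 15, and its adjusted p rose past 0.05 when GRflox replicate 1 (0.0518) or 5 (0.0685) or corneaGRKO replicate 3 (0.0513) was left out. The Krt19 difference in those fits was 0.80, 0.76 and 0.82, beside 0.79 with all libraries. Krt13 passed in 8, with adjusted p from 0.031 to 0.155, and missed it in 6 of the 8 fits without 1 library: GRflox replicate 1 (0.133), 4 (0.0731) and 5 (0.155), and corneaGRKO replicate 3 (0.128), 4 (0.0521) and 5 (0.0723). It also missed it with quantile normalization (0.0528), a pseudocount of 16 (0.0502), no mean-variance trend (0.0502), and corneaGRKO replicates 1 and 4 left out together (0.0934).

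Few genes that anchor or control keratins were called. Over all entries, 1.33% were called higher and 0.52% lower, so lists of 22 genes are too short to compare with these shares. Of 22 tested linkers, the plakins, plakophilins, desmosomal cadherins and hemidesmosome proteins that tie keratin filaments to cell junctions, 0 passed in either direction, while 1 was higher and 2 were lower at an unadjusted p under 0.05 (9.69% and 6.86% over all entries). Their median difference was -0.02. Of 22 tested regulators of keratin genes, Nr3c1, the floxed gene itself, alone passed, as lower. At an unadjusted p under 0.05, 1 regulator was higher and 1 lower. Without overlap, 1 lay above GRflox and 1 below it (5.89% and 4.61% over all entries). Pax6, which drives corneal identity and whose promoter was used for Cre, overlapped between groups with a difference of -0.01 (95% interval -0.12 to 0.10). Of 6 markers of keratocytes, the cells of the stroma, 2 passed as lower. These were Kera, a keratan sulfate proteoglycan, which fell by 0.29 (limma adjusted p = 0.0369), and Col5a1, a fibrillar collagen chain, which fell by 0.33 (limma adjusted p = 0.0127), beside 0.52% of all entries called lower. Of the other members, Ptgds differed by 0.38 with all corneaGRKO libraries above GRflox (limma adjusted p = 0.185), Dcn by 0.09 and Lum by 0.07, both with overlapping groups, and Aldh3a1, which corneal epithelium also expresses, by -0.21. These genes were named after their values were seen. The 7 tested proliferation markers gave 0 calls, with 0 higher and 1 lower at an unadjusted p under 0.05.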

How the data were processed

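The authors deposited 1 table of log2 normalized expression values, 24918 entries by 8 libraries. Per the submitters' processing notes, Bowtie2, HTSeq and DESeq2 were used. Of these tools and of the log2 transformation, versions and settings are not given in the sources used here. Both mm9 and mm10 appear in the labels, so coordinates are printed only for RefSeq sequences. More than 40 M reads (75 nt, paired) per library were aligned, per the labels' protocols. The depth of each library is unknown, so no counting interval is given. The table held 0 value columns beyond the 8 libraries.

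The two-sided test came from limma 3.58.1 (R 4.3.3), fitted to 13269 entries averaging 5 or more, with group as term and a mean-variance trend. Its p-values were adjusted by Benjamini-Hochberg, with a threshold of 0.05, and the code was tested on simulated data. Ratios of partners were tested with exact permutation tests over libraries. Each replicate is its own pool, and a p-value is relative to the variation among such pools. No libraries were duplicates of each other (smallest median absolute difference of a pair 0.0427). Transcript lengths came from GENCODE M21, and chromosomes and gene order from RefSeq GRCm38.p6, which matched 51 of 52 keratin rows by Entrez gene. Summed levels are sums of linear values.

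The members, lists and pairs were chosen with earlier results of these data known. Every member could be named. Outside the family, Nr3c1, Pax6 and members of the linker and regulator lists past the threshold were named by rule, and markers of other cell types and the run on chromosome 11 were singled out after their values were seen. The 18 alternatives were a fit blocked by replicate number, no filter, a filter at 7, quantile normalization, median centring, a pseudocount of 16, no trend, robust moderation, library weights, each library left out, and corneaGRKO replicates 1 and 4 left out together.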

Additional observations from a re-analysis of the deposited data

Results flagged for a closer look

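Of 70 sets of 4 libraries examined (23 keratins, Nr3c1, Pax6 and 10 partner ratios in both groups), 3 held a library far from the others, and chance gives about 1 in 20. Krt76 was at 7.33 in corneaGRKO replicate 4, while the other 3 corneaGRKO libraries were at 5.37 to 5.52. Krt14 was at 13.36 in GRflox replicate 5, below the 13.89 to 13.94 of the other GRflox libraries. The log2 ratio of Krt1 to Krt10 was -0.0589 in GRflox replicate 5, while the other GRflox libraries were at -0.31 to -0.27.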

How the results depend on the processing

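The number of keratins called higher, 3 as reported, was 7 with the replicate number as a block (3.51% of all entries called higher), 8 with library weights (7.33%), and 6 without corneaGRKO replicates 1 and 4 together (1.79%). Leaving out single libraries gave 1 to 6, in fits that called 0.392% to 3.14% of all entries higher. The block added Krt4, Krt14, Krt15 and Krt17 to Krt8, Krt13 and Krt19. The weights, which were estimated from the same 8 libraries, added Krt4, Krt7, Krt15, Krt17 and Krt75. The number called lower was 0 in every alternative. The replicate numbers do not pair the libraries by the check used, since same-numbered libraries of the 2 groups had correlations of 0.51, -0.28, 0.26 and 0.06 in their deviations from the group means, and not every library correlated best with its own number. With the pairs taken as blocks, the smallest exact p for a partner ratio is 0.125.

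Signs turned for genes near 0. Krt10 stood at -0.00214 with quantile normalization, -0.00302 and -0.0307 without GRflox replicates 3 and 5, -0.0335 without corneaGRKO replicate 1 and -0.0235 without corneaGRKO replicates 1 and 4, with a range of -0.0335 to 0.0514 over single libraries left out. Krt6a stood at -0.0436 with library weights, -0.0729 without GRflox replicate 5, -0.0333 without corneaGRKO replicate 1 and -0.0225 without corneaGRKO replicates 1 and 4 (range over single libraries -0.0729 to 0.0418). Krt78 stood at 0.0118 without GRflox replicate 1 and 0.00461 without corneaGRKO replicate 5 (range -0.0503 to 0.0118). Pax6 stood at 0.0303 with quantile normalization, 0.0331 with library weights, 0.0019 without GRflox replicate 4, 0.0105 and 0.0135 without corneaGRKO replicates 1 and 4 in turn, and 0.0548 without both (range over single libraries -0.0349 to 0.0135). The cause was not tested. Krt12 and Krt5 are the top entries of every library, so quantile normalization sets their differences to 0 by construction. All 10 partner ratios moved by less than the larger SD of the 2 groups in every alternative run for them, an SD that itself includes corneaGRKO replicate 4. Without that library Krt8 to Krt19 went from -0.24 to -0.10 and Krt7 to Krt19 from -0.08 to -0.20, beside the 4 ratios given with their genes. The sign of Krt7 to Krt19 alone turned, to 0.00619 without corneaGRKO replicate 1. Unknown depth and the narrow spread of weak genes limit what the untested members can show.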
